A study of Mus musculus with 5 samples.

Results

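The ZFP36, Regnase and Roquin genes encode proteins that bind messenger RNA and mark it for destruction. The 7 genes described here are Zfp36, Zfp36l1 and Zfp36l2 of the ZFP36 family, Zc3h12a and Zc3h12d of the Regnase family, and Rc3h1 and Rc3h2, which encode Roquin-1 and Roquin-2. They were found by a fixed list of symbols. The search itself uses no measured value, but the list was chosen with earlier results of these data known. All 7 were found among the 56691 genes listed and among the 30580 genes with enough counts to be tested. RNA was sequenced from natural killer (NK) cells of mouse spleen after CRISPR editing, in 3 libraries labelled Fli1 KO and 2 libraries labelled NTC. Fli1 is an ETS transcription factor gene, studied here, going by the series title, for its part in protein homeostasis when nutrients are short and in how long NK cells last in solid tumours. All 5 libraries were made from total RNA by enrichment with capture probes. The labels give no strain, age, sex, culture condition or guide for either group, and do not spell out NTC. They also do not say whether the replicates came from separate animals or cultures, so a p-value here reflects the spread among these 5 libraries, which may be technical.

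ZFP36 proteins carry a pair of zinc fingers that bind AU-rich elements in 3′ untranslated regions (UTRs), and they recruit the CCR4-NOT complex, which removes the poly(A) tail. Regnase-1, the product of Zc3h12a, is an endonuclease that cuts messages at stem-loops with a small loop of pyrimidine, purine and pyrimidine. Roquins bind stem-loops of the same kind and also recruit CCR4-NOT. In lymphocytes and macrophages the messages of cytokines, early response genes and NF-kappaB regulators are among the best known targets of these proteins.

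The libraries held 5487027, 5643791 and 5164623 counts in Fli1 KO 1 to 3, and 5445718 and 4718390 counts in NTC 1 and NTC 2. One transcript, Gm10800, took 13.8% to 16.4% of the counts in Fli1 KO libraries and 10.3% and 19.0% in NTC libraries. Levels are given in CPM, the count of a gene relative to its library's total after scaling with TMM factors. Where genes are compared with each other, levels are given in CPM per kb of annotated exon, joined over all transcripts of a gene. Such levels may also depend on how well the capture probes covered each gene, which was not tested. Background was 1.57 CPM per kb, the density of counts on 1455 olfactory and vomeronasal receptor genes, which NK cells do not use. All 10 NK marker genes lay over 3 times background, against 0 of 7 B cell, 0 of 8 T cell, 1 of 10 myeloid (Cd68) and 0 of 8 erythroid or platelet markers. Fli1 RNA was measured at 390, 320 and 361 CPM in Fli1 KO 1 to 3, against 322 and 279 CPM in NTC 1 and NTC 2, with a log2 fold change of 0.25 (SE 0.14). Its adjusted p was 0.641 by edgeR's quasi-likelihood test with Benjamini-Hochberg adjustment, so its RNA level does not separate the labels.

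Zfp36 was the one member that passed the test. Its RNA was 2.92 times as abundant in Fli1 KO as in NTC libraries, while its relatives Zfp36l1 and Zfp36l2 differed little. Zc3h12a lay higher in every Fli1 KO library than in either NTC library, but its adjusted p was just above the threshold. The other members, Zc3h12d, Rc3h1 and Rc3h2, had log2 fold changes between -0.23 and 0.08 and did not pass. A gene is called here where its adjusted p over all 30580 tested genes is under 0.05. By that rule 1 of 7 members was called, beside 0.546% of all tested genes (167 genes, 140 of them higher) and 2% of the 7605 genes over 3 times background. The call of 1 member higher and 0 lower was the same with DESeq2 and with limma-voom, and at an unadjusted p under 0.05 there were 2 higher and 0 lower, beside 8.94% of all tested genes and 18.3% of those over 3 times background. Without Fli1 KO 1, Fli1 KO 3 or NTC 1 the 167 called genes became 49, 64 or 877, and without Fli1 KO 2 or NTC 2 a second member, Zc3h12a, was called.

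**Figure D1:**
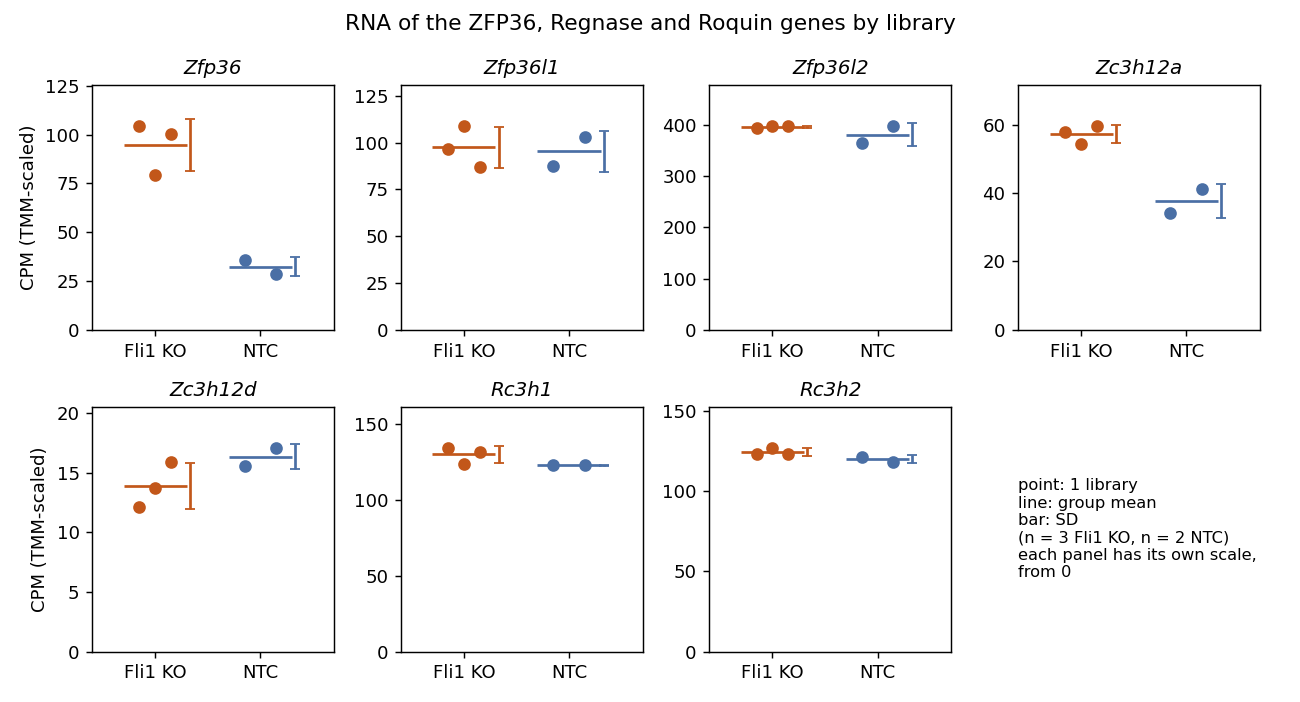
RNA level of each of the 7 genes in CPM (y axis, from 0, with a scale of its own in each panel) in the 3 Fli1 KO and 2 NTC libraries. Points are libraries, lines are group means and bars are SDs. Zfp36 sits at 79.4 to 105 CPM in Fli1 KO and at 28.8 and 35.7 CPM in NTC, Zc3h12a is also apart, and the ranges of Zfp36l1 cross.

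Zfp36 encodes tristetraprolin, the founding member of its family and an early response gene whose message is itself short-lived. The gene (ENSMUSG00000044786) lies on the minus strand at chr7:28376784-28380253 in GRCm38 (the assembly also called mm10). It had 105, 79.4 and 100.2 CPM in Fli1 KO 1 to 3, against 35.7 and 28.8 CPM in NTC 1 and NTC 2. The lowest Fli1 KO library was more than double the highest NTC library, and the groups did not overlap. The means were 94.7 ± 13.4 CPM in Fli1 KO (SD, n = 3) and 32.3 ± 4.87 CPM in NTC (SD, n = 2). The log2 fold change was 1.55 (SE 0.16, 95% interval 1.21 to 1.88), a ratio of 2.92, with an adjusted p of 6.3e-06 by edgeR's quasi-likelihood test. These values rest on 518, 445 and 497 counts in Fli1 KO and on 206 and 138 counts in NTC. In bulk RNA such as this, a change in the share of cells that hold a message cannot be told apart from a change in RNA per cell.

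The lowest Zfp36 value within each group came from the library numbered 2. Those libraries also had the lowest summed level of the 10 NK markers in their group. That sum was 13425, 9015 and 11598 CPM in Fli1 KO 1 to 3, and 9623 and 6508 CPM in NTC 1 and NTC 2. A sum gives most weight to the most abundant markers, and the log2 fold changes of the 10, Fli1 KO over NTC, ran from -0.48 to 0.87. The part of the summed NK marker level in the Zfp36 difference was not tested. An annotated antisense gene, Gm44710, shares 125 exon bases with Zfp36 and had 5, 8 and 3 counts in Fli1 KO and 4 and 1 counts in NTC. No source used here gives the strand setting of the counting, so reads in shared exons of opposite strands cannot be told apart.

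The sequence before the Zfp36 start site is shown because Fli1 belongs to the ETS family and because Zfp36 was the member that was called. In the RefSeq promoter table (GRCm38.p6), the 250 bases before that start held a match to CCGGAAG, an ETS core, to the CArG box of serum response factor, and to GCGNGGGCG, the box of EGR factors. Both strands were searched. Capitals mark the matches in the windows below, which lie on the minus strand. The first spans bases -108 to -81 from the RefSeq start (chr7:28379309-28379336) and holds the EGR and ETS matches in that order, and the second spans -64 to -42 (chr7:28379270-28379292) and holds the CArG box. The annotated GENCODE gene begins further upstream, so both windows lie within its longest first exon.
Zfp36 EGR and ETS: gccGCGGGGGCGcgtcCCGGAAGctcta
Zfp36 CArG: gccgccCCATAAAAGGagaaagc
CCGGAAG is found in 6.90% of the 32817 RefSeq windows of that length, the CArG box in 1.47% and GCGNGGGCG in 4.70%. Promoter sequence was at hand for 6 of 7 members. TGANTCA, a looser form of the AP-1 core TGA(C/G)TCA, was found in 6.75% of windows. Rc3h1 held it as TGACTCA, and Zfp36l1 as TGATTCA, which the stricter core does not include. TGACGTCA, the full site of CREB and ATF factors, was in none of the 6 and in 1.55% of all windows, and Zc3h12a, Zc3h12d and Rc3h2 had no match to any of the 5 motifs. A match is a description of letters and not a site of binding.

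Zfp36l1 and Zfp36l2 encode the close relatives of tristetraprolin, with like zinc fingers and a shared preference for AU-rich elements. Zfp36l1 (ENSMUSG00000021127, chr12:80107754-80113013, minus strand) had 96.4, 109 and 87.1 CPM in Fli1 KO, against 87.7 and 103 CPM in NTC. The groups overlapped fully. Its log2 fold change was 0.03 (SE 0.14, 95% interval -0.26 to 0.32), with an adjusted p of 0.976 by edgeR. Its sign was not stable: the value was -0.0888 when counts were scaled by library size alone and -0.0857 when only genes over 3 times background were fitted, and it was also below 0 without Fli1 KO 2 (-0.0357) or NTC 1 (-0.0613). A noncoding gene on the other strand, Gm26669, shares 1672 exon bases with Zfp36l1. Gm26669 is not among the genes listed, so it has no counts here, and its part in the Zfp36l1 level was not tested.

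Zfp36l2 (ENSMUSG00000045817, chr17:84183931-84187947, minus strand) had 394, 396 and 398 CPM in Fli1 KO, against 365 and 396 CPM in NTC. NTC 2 lay within the Fli1 KO range and NTC 1 a little below it. The log2 fold change was 0.06 (SE 0.13, 95% interval -0.22 to 0.33) with an edgeR adjusted p of 0.947, and it was -0.0669 and -0.0657 under those 2 other settings. The 95% intervals of both relatives end below the lower bound of the Zfp36 interval, 1.21. An annotated antisense gene, AC132455.1, shares 105 exon bases with Zfp36l2 and had 3, 11 and 14 counts in Fli1 KO and 19 and 8 counts in NTC.

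Set against its relatives within each library, Zfp36 took a larger place in Fli1 KO. The log2 ratio of Zfp36 to Zfp36l1 counts was 0.12, -0.46 and 0.20 in Fli1 KO and -1.30 and -1.84 in NTC, a difference of 1.52. Against Zfp36l2 the log2 ratio was -1.91, -2.32 and -1.99 in Fli1 KO and -3.35 and -3.78 in NTC, a difference of 1.49. Neither ratio depends on how libraries are scaled, and the groups did not overlap in either. The exact two-sided permutation p of each of the 4 ratios computed here was 0.2 (0.2 after adjustment over the 4), the smallest that 10 splits of 3 and 2 libraries allow.

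On the length-scaled level, Zfp36 supplied 17.3%, 13.3% and 16.9% of the summed ZFP36 family RNA in Fli1 KO, against 7.20% and 5.35% in NTC. Zfp36l2 supplied most of it in both groups, on average 65.2% in Fli1 KO and 72.3% in NTC. The family sum was 174, 172 and 171 CPM per kb in Fli1 KO and 143 and 155 CPM per kb in NTC, a ratio of means of 1.15. By gene, Zfp36 averaged 27.3 ± 3.87 CPM per kb in Fli1 KO (SD, n = 3) and 9.30 ± 1.40 CPM per kb in NTC (SD, n = 2), against 112 and 108 CPM per kb of Zfp36l2. These shares and levels depend on the exon length used, which for Zfp36 was 3470 bases and spans the whole gene. They may also depend on how well the probes captured each gene, which was not tested.

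**Figure D2:**
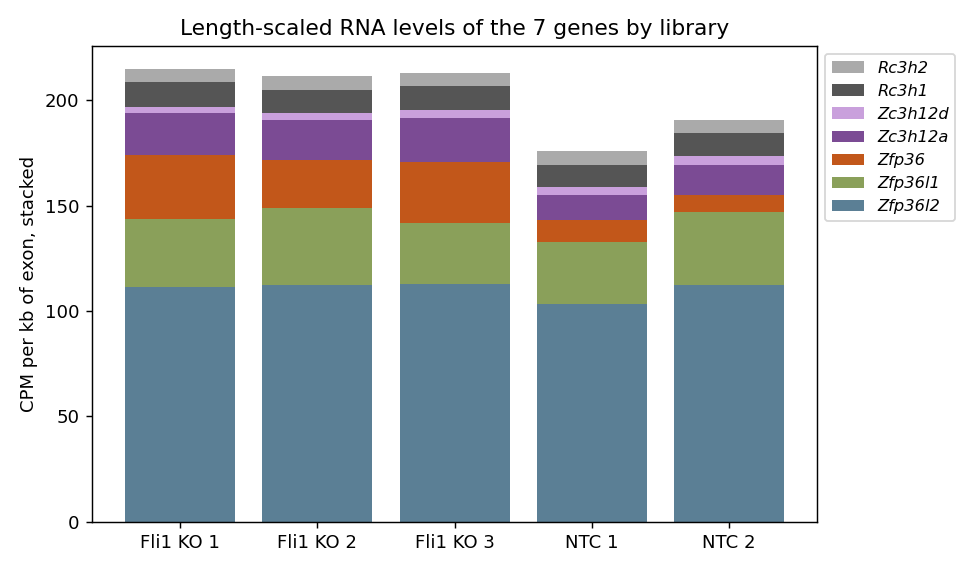
Stacked level of the 7 genes in CPM per kb of exon (y axis, from 0) in each library (x axis, Fli1 KO 1 to 3, then NTC 1 and NTC 2). Each colour is 1 gene. Zfp36l2 is the tallest block in all 5 libraries, and the Zfp36 block is 22.9 to 30.1 CPM per kb in Fli1 KO and 8.31 and 10.3 CPM per kb in NTC.

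Ordered by mean CPM per kb, the members in Fli1 KO ran Zfp36l2 (112), Zfp36l1 (32.6), Zfp36 (27.3), Zc3h12a (19.9), Rc3h1 (11.5), Rc3h2 (6.34) and Zc3h12d (3.40). In that order only the neighbours Zfp36l1 and Zfp36 had ranges that crossed, at 29.1 to 36.4 and 22.9 to 30.1 CPM per kb. In NTC the order was Zfp36l2 (108), Zfp36l1 (31.9), Zc3h12a (13.1), Rc3h1 (10.9), Zfp36 (9.30), Rc3h2 (6.10) and Zc3h12d (4.0), with no neighbours whose 2 libraries crossed. Zfp36 thus stood in the third place in Fli1 KO and in the fifth in NTC, and the other members kept their order among themselves. The place of Zfp36 depends on its exon length of 3470 bases, which joins all annotated transcripts and spans the whole gene. A shorter length would raise its level per kb in both groups. The order of the members may also depend on how well the probes captured each gene, which was not tested. Of the 7 members, 6 lay over 3 times background. Zc3h12d, at 2.32 times background, did not.

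The AU-rich sites of the family's own messages are shown because ZFP36 proteins are known to bind the element TATTTAT (written as DNA), also in their own 3′ UTRs. In GENCODE 3′ UTRs, 1 transcript per gene, Zfp36, Zfp36l1 and Zfp36l2 each held 3 matches to TATTTAT. Among all 21027 genes with a 3′ UTR, 26.1% held at least 1 and 3.75% held at least 3. Capitals mark the element in 1 site of each, at chr7:28376954-28376976, chr12:80108170-80108192 and chr17:84184917-84184939 (GRCm38, minus strand).
Zfp36: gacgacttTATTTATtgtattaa
Zfp36l1: tgttggatTATTTATtttagaaa
Zfp36l2: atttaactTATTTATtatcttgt
All 3 messages held the element, and its part in the Zfp36 difference was not tested.

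Zc3h12a encodes Regnase-1, which restrains cytokine messages in T cells and macrophages. The gene (ENSMUSG00000042677, chr4:125118423-125127840, minus strand) had 57.7, 54.4 and 59.6 CPM in Fli1 KO, against 34.2 and 41.2 CPM in NTC. Every Fli1 KO library lay above both NTC libraries. The means were 57.2 ± 2.65 CPM in Fli1 KO (SD, n = 3) and 37.7 ± 4.95 CPM in NTC (SD, n = 2). The log2 fold change was 0.61 (SE 0.14, 95% interval 0.31 to 0.91), a ratio of 1.52, with an edgeR adjusted p of 0.0598, so the gene was not called. It was called in 4 of 12 other settings: with no filter on low counts (adjusted p 0.0318), with a filter of 5 CPM in 2 libraries (0.0442), without Fli1 KO 2 (0.0497) and without NTC 2 (0.0441). Over the 12 settings the log2 fold change ran from 0.48 to 0.75 and the adjusted p reached 0.461. A further edgeR fit, blocked on replicate number, also called it (0.58, adjusted p 9.0e-04) and is described below.

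**Figure D3:**
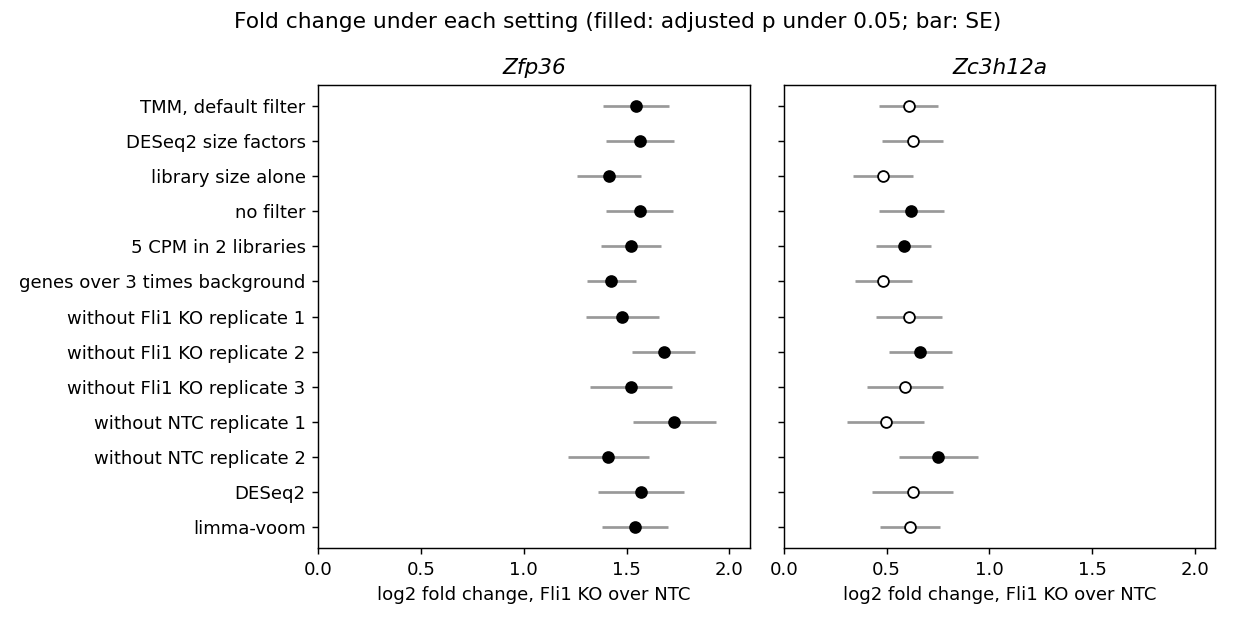
Log2 fold change, Fli1 KO over NTC (x axis), of Zfp36 and Zc3h12a under the chosen fit (top line) and 12 other settings (y axis). Filled points have an adjusted p under 0.05 and bars are the SE. Zfp36 is filled throughout, between 1.41 and 1.73, and Zc3h12a is filled in 4 of the 12 others. A fit blocked on replicate number is not drawn.

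Zc3h12d encodes Regnase-4, a relative of Regnase-1 found mainly in lymphocytes. The gene (ENSMUSG00000039981, chr10:7832470-7870396, plus strand) had 12.1, 13.7 and 15.9 CPM in Fli1 KO, against 15.6 and 17.1 CPM in NTC. The ranges crossed, and the log2 fold change of -0.23 (SE 0.19, 95% interval -0.62 to 0.16) had an edgeR adjusted p of 0.780. The log2 ratio of Zc3h12a to Zc3h12d counts was 2.25, 1.99 and 1.91 in Fli1 KO and 1.13 and 1.26 in NTC, a difference of 0.85 whose exact permutation p was again 0.2. Of the summed Regnase RNA per kb, Zc3h12a supplied 85.4 ± 1.54% in Fli1 KO (SD, n = 3) and 76.5 ± 1.18% in NTC (SD, n = 2). The summed level was 23.3 ± 1.2 CPM per kb in Fli1 KO and 17.1 ± 1.98 CPM per kb in NTC. Background was not subtracted from the ratio, shares or sum, and Zc3h12d lay at only 2.32 times background.

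The other 3 relatives had RNA near or below background, at 0.60 times background for Zfp36l3, 1.10 times for Zc3h12b and 1.16 times for Zc3h12c. Their log2 fold changes were -0.05, -0.14 and -0.06. None of the 3 was called by edgeR, DESeq2 or limma-voom, and 0 had an unadjusted p under 0.05.

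Rc3h1 and Rc3h2 encode the Roquins, which overlap in function in mouse T cells and act on partly the same messages as Regnase-1. Rc3h1 (ENSMUSG00000040423, chr1:160906418-160974978, plus strand) had 135, 124 and 132 CPM in Fli1 KO, against 123 and 123 CPM in NTC. Rc3h2 (ENSMUSG00000075376, chr2:37370069-37422903, minus strand) had 123, 127 and 123 CPM in Fli1 KO, against 121 and 118 CPM in NTC. In both genes every Fli1 KO library lay above both NTC libraries, by a small margin: the nearest Rc3h1 values were 124 CPM in Fli1 KO 2 and 123 CPM in NTC 2. The log2 fold changes were 0.08 (SE 0.13, 95% interval -0.19 to 0.35) for Rc3h1 and 0.05 (SE 0.13, 95% interval -0.21 to 0.32) for Rc3h2, with edgeR adjusted p of 0.915 and 0.948. Their signs turned with the scaling: Rc3h1 had -0.046 and Rc3h2 -0.0707 with library size alone, and -0.0402 and -0.0623 when genes over 3 times background were fitted.

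Rc3h1 supplied 64.5 ± 1.39% of the summed Roquin RNA per kb in Fli1 KO (SD, n = 3) and 64.1 ± 0.492% in NTC (SD, n = 2). The log2 ratio of Zc3h12a to Rc3h1 counts was -1.22, -1.19 and -1.14 in Fli1 KO and -1.85 and -1.58 in NTC, a difference of 0.53 with an exact permutation p of 0.2. Counting all 7 members, the groups did not overlap in 4 (Zfp36, Zc3h12a, Rc3h1 and Rc3h2, all higher in Fli1 KO), beside 25.6% of all tested genes in either direction and 11.9% with Fli1 KO higher. Among the 7605 genes over 3 times background, 34.1% did not overlap in either direction, and 2000 of the 7605 were apart with Fli1 KO higher. The log2 fold change was positive in 6 of 7 members, beside 47.6% of all tested genes and 70.5% of those over 3 times background. The median of the members was 0.06, against -0.02 over all tested genes and 0.11 over those above 3 times background.

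**Figure D4:**
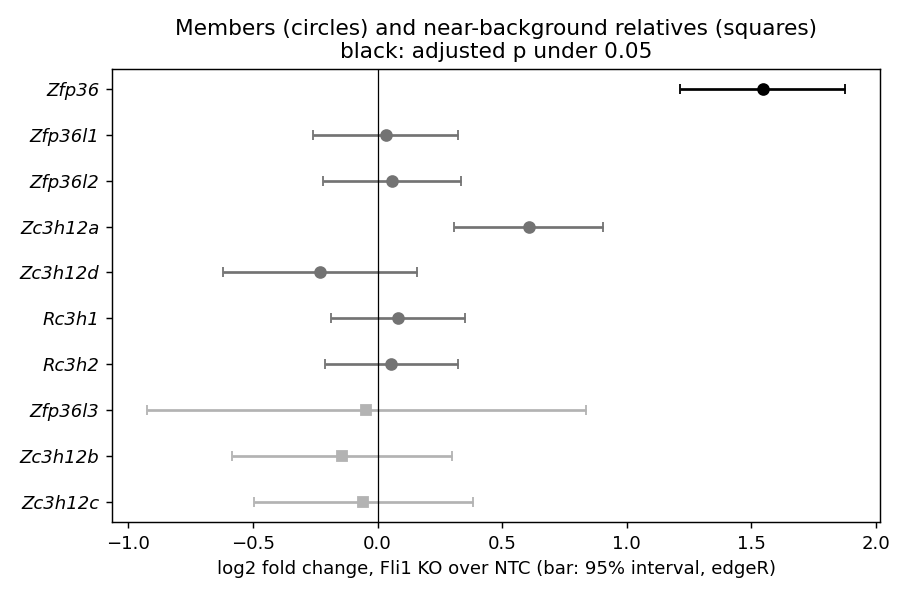
Log2 fold change, Fli1 KO over NTC (x axis), of the 7 members (circles) and 3 relatives near background (squares), with 95% intervals from edgeR. Zfp36, in black, is the one gene with an adjusted p under 0.05. The Zc3h12a interval runs from 0.31 to 0.91, and the intervals of the others cross 0.

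The partners that carry out decay after these proteins have bound are grouped here by step. Of 21 genes of the CCR4-NOT complex, the PAN2-PAN3 deadenylase, poly(A)-binding proteins and their adaptors, edgeR called 0, while DESeq2 and limma-voom called 1 each, beside 0.546% of all tested genes called by edgeR. At an unadjusted p under 0.05, 5 were higher and 1 lower, beside 8.94% of all tested genes and 18.3% of those over 3 times background. The groups did not overlap in 12 of the 21, beside 25.6% and 34.1%, with 7 higher and 5 lower in Fli1 KO, and the median log2 fold change was 0.11. The gene called by the other tools was Pabpc1, the main cytoplasmic poly(A)-binding protein. It had 672, 508 and 513 CPM in Fli1 KO and 371 and 374 CPM in NTC, a log2 fold change of 0.60 (SE 0.15). Its adjusted p was 0.0884 by edgeR, 0.0346 by DESeq2 and 0.0381 by limma-voom. edgeR also called it with no filter on low counts (0.0161) and without NTC 1 (0.0291).

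Among the nucleases of the CCR4-NOT complex, Cnot6 and Cnot6l were the members of that list with the next smallest p. Cnot6 had 124, 99.9 and 120 CPM in Fli1 KO and 94 and 71.7 CPM in NTC (log2 fold change 0.46, edgeR adjusted p 0.253). The scaffold Cnot1, onto which ZFP36 and Roquin proteins dock, had 345, 310.2 and 340.4 CPM in Fli1 KO and 317 and 277 CPM in NTC (0.16, adjusted p 0.795).

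Of 35 tested genes of decapping, the exonucleases and the RNA exosome, 0 were called by edgeR, DESeq2 or limma-voom, beside the same 0.546% of all tested genes. At an unadjusted p under 0.05, 2 were higher and 0 lower, beside 8.94% of all tested genes and 18.3% of those over 3 times background. Exosc3, a cap subunit of the exosome, had the smallest p, with 57.5, 42.1 and 46.3 CPM in Fli1 KO and 38.5 and 28.4 CPM in NTC (log2 fold change 0.53, edgeR adjusted p 0.247), and was called without NTC 1 (0.79, adjusted p 0.00638). Upf1, the helicase that Regnase-1 needs for its activity, had a log2 fold change of -0.06.

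Of 31 other RNA-binding genes, edgeR called 0, while DESeq2 and limma-voom called 1 each, beside 0.546% of all tested genes. At an unadjusted p under 0.05, 6 were higher and 3 lower, beside 8.94% of all tested genes and 18.3% of those over 3 times background. Cpeb4, which binds cytoplasmic polyadenylation elements, had 63.1, 62.6 and 63.9 CPM in Fli1 KO and 45.4 and 38.2 CPM in NTC (log2 fold change 0.59, edgeR adjusted p 0.0589). It was called without NTC 1 (0.00683), with no filter (0.0337) and with the 5 CPM filter (0.0372). Arid5a, whose product protects messages such as Il6 from Regnase-1, had 248, 232 and 253 CPM in Fli1 KO and 151 and 181 CPM in NTC (0.56, adjusted p 0.0767). It was the gene of this list that the other tools called, with adjusted p of 0.035 by DESeq2 and 0.0389 by limma-voom. Both genes were apart between the groups in the direction of Zc3h12a, and neither passed edgeR's test. Arid5a is outside the rule for naming genes and was chosen after its values were seen, as were Cnot6, Cnot6l, Cnot1 and Upf1.

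Genes that control the proteins of this group gave 2 calls, both higher in Fli1 KO, among 28 tested, beside 0.458% of all tested genes called higher. Of the 28, 25 lay over 3 times background, where 130 of 7605 genes were called higher. DESeq2 and limma-voom also called 2 of the 28 higher and 0 lower. Dusp1 encodes the phosphatase that switches off p38, the kinase upstream of the phosphorylation that holds tristetraprolin inactive. It had 70.8, 40.7 and 53.4 CPM in Fli1 KO and 18.7 and 19.8 CPM in NTC. All 3 Fli1 KO libraries had at least double the level of either NTC library, with a log2 fold change of 1.51 (SE 0.20) and an edgeR adjusted p of 3.3e-04. The rest of the p38 branch did not pass: Mapk14, Mapkapk2, Map2k3 and Map2k6 had log2 fold changes of 0.11, 0.22, 0.39 and 0.44.

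Malt1 encodes the paracaspase that cleaves Regnase-1 and the Roquins after antigen receptor signalling. It had 595, 550.4 and 597 CPM in Fli1 KO and 388 and 347 CPM in NTC, with groups well apart. The log2 fold change was 0.66 (SE 0.14) with an edgeR adjusted p of 0.0262. The call was lost when counts were scaled by library size alone (0.53, adjusted p 0.103) and without Fli1 KO 1 (0.236), Fli1 KO 3 (0.399) or NTC 2 (0.218). Its partner Bcl10 had a log2 fold change of 0.34 and was not called. Bcl10 and the genes of the p38 branch other than Dusp1 were named after their values were seen.

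Messages known as targets of ZFP36 proteins in other cells gave 5 calls higher and 0 lower among 27 tested, beside 0.458% and 0.0883% of all tested genes. Among the 7605 genes over 3 times background, 130 were called higher and 22 lower. At an unadjusted p under 0.05, 10 of the 27 were higher and 1 lower, beside 8.94% of all tested genes and 18.3% of those over 3 times background. DESeq2 called 6 higher, the sixth being Vegfa, and limma-voom called 5. The median log2 fold change of the list was 0.07, 14 of 27 were positive, and 13 of the 27 lay over 3 times background. The called genes were Ier3, Ifng, Fos, Dusp1 and Myc. Dusp1 is also a called gene of the control list above, so it is counted in both lists.

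Ier3, an early response gene, had 70.6, 48.7 and 53.6 CPM in Fli1 KO and 14.6 and 10.4 CPM in NTC, a ratio of 4.56 (log2 fold change 2.19, edgeR adjusted p 7.7e-07). Ifng, the signature cytokine of NK cells, had 58.5, 43.0 and 46.8 CPM in Fli1 KO and 14.2 and 11.5 CPM in NTC, a ratio of 3.81 (1.93, adjusted p 1.7e-06). Both groups of values were far apart in these genes. Each 3′ UTR held 4 matches to TATTTAT, and 1 site of each is shown with the element in capitals, at chr17:35822484-35822506 and chr10:118445346-118445368 (GRCm38, plus strand).
Ier3: ctaattaaTATTTATgtatttat
Ifng: tttaaaacTATTTATatggagaa

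Fos, a subunit of AP-1, had 16.1, 10.3 and 12.9 CPM in Fli1 KO and 2.43 and 3.34 CPM in NTC (log2 fold change 2.19, edgeR adjusted p 1.6e-04). At 2.45 times background it was the lowest of the called targets. Myc, a growth-promoting transcription factor, had 200.1, 160.2 and 212 CPM in Fli1 KO and 127 and 103 CPM in NTC (0.73, adjusted p 0.0225). Its 3′ UTR held 0 matches to TATTTAT in the transcript used. The Myc call was lost with library size alone (adjusted p 0.0607) and without Fli1 KO 1 (0.260), Fli1 KO 3 (0.370) or NTC 2 (0.191).

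Other well-known targets did not follow those genes. Tnf, the first target described for tristetraprolin, holds 8 matches to TATTTAT and had 21.4, 22.8 and 19.3 CPM in Fli1 KO against 24.1 and 31.1 CPM in NTC (log2 fold change -0.37, edgeR adjusted p 0.509). Csf2 holds 9 matches and had a log2 fold change of -0.01. Il2, Il6, Il1b, Il10 and Il17a lay between 0.807 and 1.30 times background, with no call. Tnf, Csf2 and these interleukins were named after their values were seen.

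Messages known as targets of Regnase-1 or Roquin moved in both directions, with 2 called higher and 2 lower among 15 tested, beside 0.458% and 0.0883% of all tested genes. Among the 7605 genes over 3 times background, 130 were called higher and 22 lower. DESeq2 and limma-voom also called 2 of the 15 higher and 2 lower. At an unadjusted p under 0.05, 5 of the 15 were higher and 3 lower, beside 8.94% of all tested genes and 18.3% of those over 3 times background. The list includes the member Zc3h12a, which is among those 5 higher genes. The list also shares 6 genes with the ZFP36 targets, which is 40% of this list and 21.4% of the other, and Ier3 is the called gene they share. Of the other called genes, Nfkbiz rose and Nfkbid and Irf4 fell.

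Nfkbiz encodes IkappaB-zeta, a nuclear regulator of NF-kappaB. It had 125, 113 and 117 CPM in Fli1 KO and 49.6 and 55.1 CPM in NTC, a ratio of 2.26 (log2 fold change 1.18, edgeR adjusted p 3.5e-05). Nfkbid encodes the related IkappaBNS and had 19.4, 18.4 and 24.0 CPM in Fli1 KO and 37.6 and 39.5 CPM in NTC (-0.91, adjusted p 0.00531). Irf4, a transcription factor of lymphocyte activation, had 17.8, 23.4 and 24.2 CPM in Fli1 KO and 41.6 and 39.7 CPM in NTC (-0.90, adjusted p 0.00594). In each of the 3 genes the groups did not overlap, and Nfkbid was 1.88-fold and Irf4 1.87-fold lower in Fli1 KO. The calls of Nfkbid (adjusted p 0.111) and Irf4 (0.117) were lost without Fli1 KO 1, and that of Irf4 also without Fli1 KO 3 (0.0502).

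Perfect stem-loops in these messages are shown because Regnase-1 and Roquin recognise such structures. The search took a loop of pyrimidine, purine and pyrimidine closed by at least 5 Watson-Crick pairs. At least 1 was found in 19.8% of the 21027 3′ UTRs and at least 2 in 4.61%. Nfkbiz and Nfkbid each held 2, Zc3h12a held 3, and Irf4 and Ier3 held 1 each. The first of each is printed with its loop in capitals, at chr16:55812613-55812629 (minus strand), chr7:30428402-30428416 (plus), chr4:125119069-125119083 (minus), chr13:30765335-30765347 (plus) and chr17:35822875-35822887 (plus) in GRCm38.
Nfkbiz: ttgtttcTATgaaacaa
Nfkbid: gatttcTGTgaaatc
Zc3h12a: gatacaCATtgtatc
Irf4: catctTATagatg
Ier3: tgttcTGTgaaca
Each called gene of the Regnase and Roquin list held at least 1 stem-loop of this form. That list was made of known targets, and the part of stem-loops in the direction of change was not tested. Rc3h1 held 4 and Rc3h2 held 2, while Zfp36, Zfp36l1, Zfp36l2 and Zc3h12d held none in the transcripts used.

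Icos and Ctla4, T cell costimulatory and inhibitory receptor genes controlled by Roquin, were not called. Icos had 77.1, 58.7 and 79.0 CPM in Fli1 KO and 44.9 and 55.1 CPM in NTC (log2 fold change 0.52, edgeR adjusted p 0.208). Ctla4 had 39.7, 29.6 and 38.1 CPM in Fli1 KO and 19.9 and 26.3 CPM in NTC (0.63, adjusted p 0.144). Rel, an NF-kappaB subunit and Regnase-1 target, had a log2 fold change of -0.08. These receptors and Rel were named after their values were seen.

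**Figure D5:**
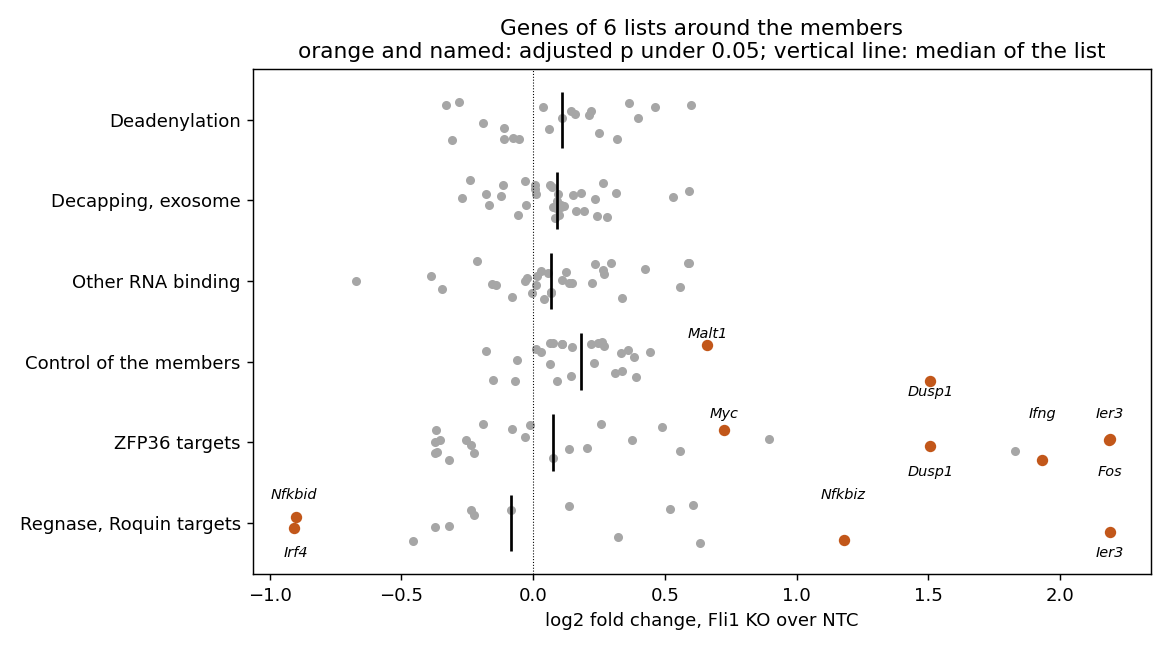
Log2 fold change, Fli1 KO over NTC (x axis), of the tested genes of 6 lists (y axis). Each point is 1 gene, orange points with a name have an adjusted p under 0.05, and black lines are list medians. The decay machinery and other RNA-binding genes hold no orange point, the ZFP36 targets hold 5 above 0, and the Regnase and Roquin targets hold 2 above and 2 below 0.

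Over the 5 libraries, the protein-coding genes whose level followed that of Zfp36 most closely were Gadd45g, Gem and Cish, out of 14634 candidates with a mean of at least 5 CPM. Likeness was the root mean square difference of centred log2 CPM, which was 0.0817 for Gadd45g, 0.111 for Gem and 0.122 for Cish. Gadd45g, a growth arrest gene, had 86.6, 72.2 and 93.1 CPM in Fli1 KO and 34.0 and 24.0 CPM in NTC. Gem, a small GTPase gene, had 554, 383 and 466 CPM in Fli1 KO and 196 and 129 CPM in NTC. Cish, a feedback inhibitor of cytokine signalling, had 104, 87.8 and 116 CPM in Fli1 KO and 44.9 and 35.7 CPM in NTC. These genes were picked for their pattern over the same libraries, so their fold changes follow from that choice and are a description. Their log2 fold changes were 1.52, 1.52 and 1.34.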

How the data were processed

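RNA of 5 libraries was sequenced. Per the submitters' processing notes, FastQC 0.12.0, Trimmomatic 0.39 and STAR 2.7.11 were used with mm10. Not given in the sources used here: counter, strand setting and annotation release. The deposited table holds whole-number read counts per Ensembl gene ID, not normalized by the authors, with 0 columns beyond these libraries. Symbols and GENCODE M21 models (GRCm38) were found for 52073 of 56691 IDs.

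Genes were kept with filterByExpr (minimum 10 counts), scaled with TMM factors and tested with edgeR 4.0.16 (R 4.3.3, robust quasi-likelihood, Benjamini-Hochberg over all 30580 tested genes, threshold 0.05). The common biological coefficient of variation was 0.120. Alternatives used DESeq2 1.42.0 and limma 3.58.1 (voom), other scaling and filters, and each library left out. The fit was also run on counts simulated from the mean levels and dispersions of these data, which does not test the calls given here. Intervals are at 95%. Log2 CPM took a prior count of 2.

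The members and gene lists were chosen with earlier results of these data known. Named were the 7 members, Fli1, up to 4 called genes per list with the smallest adjusted p (the 1 of smallest p in a list with no call), and the 3 genes most like each called member, 23 in all; genes named beyond this rule are marked. Ratios within a library used an exact permutation test. Motifs were searched in RefSeq promoters and GENCODE 3′ UTRs.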

Additional observations from a re-analysis of the deposited data

How the results depend on the processing

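Zfp36 was called in each of the 12 settings other than the replicate block, with log2 fold changes of 1.41 to 1.73 and adjusted p up to 0.00139. Of the other members, 4 changed sign while never passing the test: with library size alone Zfp36l1 had -0.0888, Zfp36l2 -0.0669, Rc3h1 -0.046 and Rc3h2 -0.0707, and with genes over 3 times background fitted they had -0.0857, -0.0657, -0.0402 and -0.0623. Leaving out 1 library at a time moved Zfp36l1 between -0.0613 and 0.16. Library size alone moved the all-gene median by -0.13 and gave 92 genes higher and 71 lower, against 140 and 27. The count of called members was 2 with no filter, 2 with the 5 CPM filter and 1 to 2 with a library left out. The count of called genes, 167, was 295 with no filter and 49 to 877 with a library left out (49 without Fli1 KO 1, 64 without Fli1 KO 3, 877 without NTC 1), and 163 to 196 in the other fits but the block. Without an NTC library, the lone one left is assumed to vary like Fli1 KO. Over the 23 genes of the naming rule and all 13 settings, the block included, 260 results stayed on their side of the threshold, 16 gained a call, 11 lost one and 10 changed sign. The cause of these moves was not tested.

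The labels give libraries 1 and 2 of both groups the same numbers, but nothing says that a number marks a shared animal or day, and only 2 pairs exist. Deviations of same-numbered libraries correlated at 0.288 and 0.427 over genes, and Fli1 KO 3 correlated at 0.199 with NTC 1, which has another number; with 2 NTC libraries their deviations mirror each other. With the replicate block 921 genes and 2 members were called, with Zc3h12a at 0.58 (adjusted p 9.0e-04). Depth limits the genes near background, Zc3h12d among the members.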

Other observations

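Among genes over 3 times background with an annotated 3′ UTR, 633 held at least 2 matches to TATTTAT, the element that ZFP36 proteins bind. Of these, 25 were called higher in Fli1 KO (3.95%) and 3 lower (0.474%) by edgeR's quasi-likelihood test. Among the 1318 genes with 1 match, 28 were higher (2.12%) and 6 lower, and among the 5003 with none, 58 were higher (1.16%) and 11 lower (0.220%). The median log2 fold changes of these groups were 0.15, 0.12 and 0.11. UTR length moved with the count of elements, with medians of 2722, 1685 and 688 bases, and its part was not tested. For stem-loops with a pyrimidine-purine-pyrimidine loop the shares lay closer: 29 of 1579 genes with one were higher (1.84%) and 5 lower, against 82 of 5375 without (1.53%) and 15 lower. These are counts over genes, described without a test, and the genes are not independent replicates.

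Vegfa, a ZFP36 target in other cells, had 335, 193 and 245 CPM in Fli1 KO and 101 and 43.7 CPM in NTC. The groups did not overlap and the log2 fold change was 1.83, but the SE was 0.49 and the edgeR adjusted p 0.421, while DESeq2 gave 0.0338. Tnfrsf9, an activation receptor of NK and T cells, had 676, 416 and 565 CPM in Fli1 KO and 386 and 207 CPM in NTC (log2 fold change 0.90, adjusted p 0.431). Rbm38, which encodes an RNA-binding protein induced by p53, had 29.9, 20.2 and 24.4 CPM in Fli1 KO and 44.0 and 34.5 CPM in NTC (-0.67, adjusted p 0.0945). All of them were picked after their values were seen.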
